A study of Arabidopsis thaliana with 2 samples.

Results

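Small signalling peptides of the CLE and RALF families were examined in pericycle cells of Arabidopsis thaliana roots, with and without iron. The rule for the genes uses names and no measured values, though earlier results of these data were known when it was set. It takes probe sets that the platform's gene table assigns to a single gene whose symbol starts with CLE, RALF, RALFL, DVL, RTFL, IDL, EPFL, GASA, PSK or RGF followed by digits. This found 17 of 13513 single-gene probe sets, 11 RALFL genes and 6 CLE genes, each read by 1 probe set. The platform's table gave no single-gene probe set with a DVL, RTFL, IDL, EPFL, GASA, PSK or RGF name, so the label "small signalling peptides" covers only CLE and RALFL genes here. A reference gene table lists 119 genes under such names, and those without a probe set among the 17 were not analysed here.

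Seedlings of ecotype Columbia carrying the GFP reporter J2661, which marks the pericycle, were sorted as protoplasts after 6 days on standard medium and a further 24 h on new medium. The -Fe roots were moved to medium in which ferrozine (0.3 mM), an iron chelator, took the place of the iron source, and the +Fe roots to medium with Fe(III)-EDTA. All seedlings were 7 days old, and cells of both conditions went through protoplasting and sorting. The comparison asks how the pericycle responds to 24 h without iron. The values are 1 column per condition, replicate 1 of each, taken as 1 array, so no value has a replicate error, no test was possible, and a gene called higher or lower is so between these arrays alone. In bulk RNA of sorted cells, a difference in transcript per cell and a difference in which cells were collected cannot be told apart.

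CLE and RALF peptides are cut from small secreted precursor proteins and act as signals between cells. CLE peptides are short modified peptides that bind receptor kinases with leucine-rich repeats and control stem cells in shoot, root and vascular tissue. RALF peptides are longer and rich in cysteine, bind receptor kinases of the FERONIA family, and are known for raising the pH of the cell wall and slowing cell expansion. The pericycle is the cell layer around the vascular strands in which lateral roots start, and RALF34 is known to act in lateral root initiation.

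Values are deposited intensities in arbitrary linear units. Over the 22746 plant probe sets the median was 0.866 on the -Fe array and 0.852 on the +Fe array. Bright probe sets were mostly higher and dim ones mostly lower on the -Fe array. For this reason each log2 difference (-Fe over +Fe) is given unadjusted, straight from the deposited values, and also after brightness adjustment, that is, minus a lowess curve through all plant probe sets. The 27 Bacillus control probe sets, for transcripts no plant makes, read 0.389 to 0.635 on the -Fe array and 0.531 to 0.727 on the +Fe array, all 27 lower without iron. The 9 hybridisation controls were all higher without iron, by 0.21 to 0.65 on the log2 scale. A probe set passed the expression filter if its higher value reached 0.858, the median of all plant values. Probe sets bind with different strength, so values are compared between arrays and not between genes.

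Of the 17 peptide genes, 6 passed the filter, and each did so on both arrays. These were RALFL22, RALFL24, RALFL32, RALFL33, RALFL34 and CLE41. All 6 read higher on the -Fe array, as did 89.9% of all probe sets past the filter. RALFL32, RALFL24 and RALFL34 were at least 1.5-fold higher, 3 of 6, against 24.1% of all probe sets past the filter. None of the 6 was at least 1.5-fold lower, against 0.295%. After brightness adjustment 0 of 6 were 1.5-fold higher, against 1.09% of all, and 0 of 6 were 1.5-fold lower, against 1.48%. RALFL32 and RALFL34 were higher without iron with q under 0.05 by the authors' deposited table, 2 of 6, against 42.4%. With another scaling the split of 3 higher and 0 lower changed. It became 0 and 0 after quantile normalization or with the median difference set to 0. Once a fitted offset and scale were taken out it became 0 and 1. These scalings shift all probe sets, and the share of all was not counted there. The changed counts thus do not set the peptide genes apart.

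**Figure D1:**
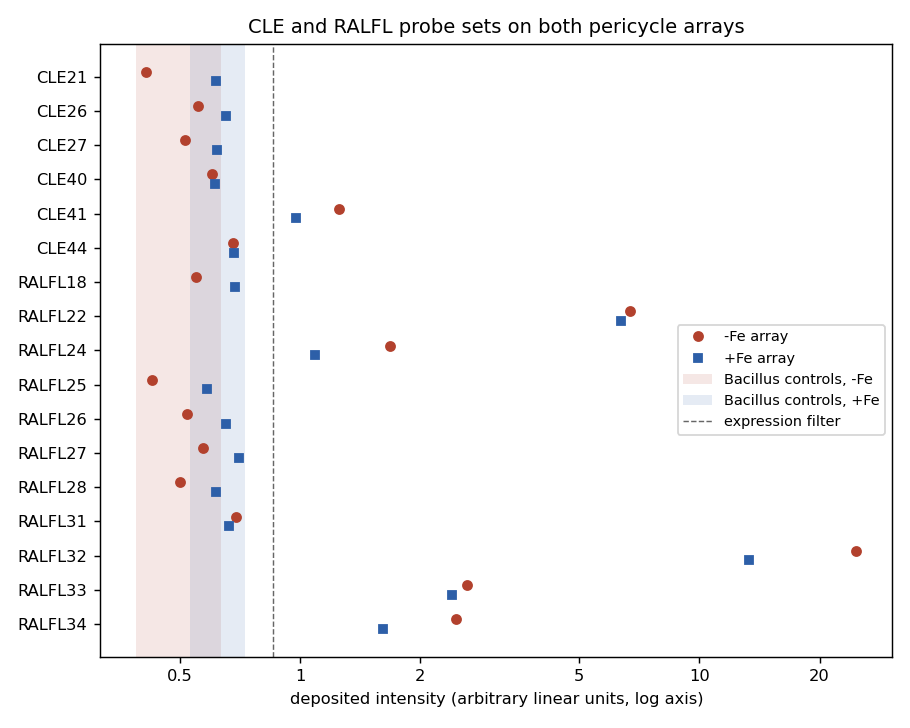
Deposited intensity (arbitrary linear units, log axis) of the 17 CLE and RALFL probe sets, with 1 point for the -Fe array (circles) and 1 for the +Fe array (squares). Shaded bands span the 27 Bacillus controls on each array and the dashed line is the expression filter at 0.858. RALFL22, RALFL24, RALFL32, RALFL33, RALFL34 and CLE41 lie right of the line on both arrays, and the other 11 lie at or near the bands.

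RALFL32 (AT4G14010) read 24.7 on the -Fe array, against 13.3 on the +Fe array. This was the largest unadjusted difference among the 17, 1.85-fold higher without iron or 0.89 on the log2 scale. Both values were above every Bacillus control of their array, as were those of the other 5 genes past the filter. Probe sets of its brightness were higher by 0.59 on the curve, which left 0.30 for RALFL32 (1.23-fold). This was smaller in size than the adjusted differences of RALFL22 and RALFL33 and close to the 0.31 of RALFL24. With a lowess fraction of 0.1 RALFL32 stood at 0.33 and RALFL24 at 0.30, so their order depends on the smoothing. The robust SD over the 500 probe sets of like brightness was 0.25, which measures how genes differ from each other, not replicate error, and 43 of the 500 lay higher than RALFL32. The authors' deposited table gave RALFL32 a q of 0.00445. The difference ran from 0.15 to 0.52 over the 4 scalings tried (brightness adjustment, quantile normalization, median difference set to 0, offset and scale removed), above 0 in each.

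RALFL34 (AT5G67070), the RALF gene known from lateral root initiation, read 2.46 on the -Fe array and 1.61 on the +Fe array. It was 1.52-fold higher without iron, or 0.61 on the log2 scale, and 0.14 higher after brightness adjustment (1.098-fold, local SD 0.21). Of the 500 probe sets of its brightness, 139 lay higher, so its difference was within the common range. The authors' deposited table listed 0.00896 as its q. RALFL24 (AT3G23805), a gene of the same family, read 1.68 on the -Fe array and 1.09 on the +Fe array. Its difference was of similar size, 0.63 unadjusted (1.54-fold), and 0.31 after brightness adjustment (1.24-fold, local SD 0.20). Only 34 of 500 probe sets of like brightness lay higher than RALFL24, while the authors' deposited table, which has no q for adjusted values, listed 0.2002. With a pseudocount of 0.25 or of 1, neither RALFL24 nor RALFL34 reached 1.5-fold.

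Of the 6 genes past the filter, RALFL22 and RALFL33 had the smallest unadjusted differences, at brightness levels where most probe sets were higher without iron. Both are known ligands of the receptor kinase FERONIA, and RALF22 is known from the wall of root hairs. RALFL22 (AT3G05490) read 6.71 on the -Fe array, against 6.38 on the +Fe array, 1.05-fold higher unadjusted (log2 0.07). The curve at its brightness was 0.62, so RALFL22 lay at -0.55 after brightness adjustment, 1.46-fold lower (local SD 0.25), and 15 of the 500 probe sets around it lay lower still. RALFL33 (AT4G15800) read 2.62 on the -Fe array, against 2.40 on the +Fe array, 1.09-fold higher unadjusted (log2 0.13). After brightness adjustment it lay at -0.40, 1.32-fold lower (local SD 0.22), with 26 of 500 lower still. Their signs thus depend on the scaling. Unadjusted both were above 0, and over the 4 scalings tried RALFL22 ran from -0.59 to -0.29 and RALFL33 from -0.41 to -0.24. The authors' deposited table gave q values of 0.237 for RALFL22 and 0.278 for RALFL33.

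Both named markers of root hairs lay under the curve, as did 5798 of all 11872 probe sets past the filter. RALFL22, RALFL33 and the endodermis marker GSO1 were among these. Of 8 listed epidermis and root hair markers 2 had a named probe set, the expansins EXPA7 and EXPA18, which loosen walls in growing hairs. EXPA7 read 0.820 on the -Fe array and 1.06 on the +Fe array, and EXPA18 read 0.802 on the -Fe array and 0.993 on the +Fe array. The sum of both was 1.62 on the -Fe array and 2.06 on the +Fe array. After brightness adjustment EXPA7 lay at -0.47 and EXPA18 at -0.36. Both passed the filter on the +Fe array alone, so the filter itself favoured a lower reading without iron. Of the other markers past the filter, GSO1 lay at -0.37, LBD16 of the pericycle list at 0.04 and OPS of the phloem list at 0.19. The part of root hair cells in the values of RALFL22 was not tested.

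CLE41 (AT3G24770) was the CLE gene past the filter. It encodes the peptide TDIF, which is known to pass from phloem to the cambium and keep vascular stem cells dividing. CLE41 read 1.26 on the -Fe array, against 0.9795 on the +Fe array, 1.28-fold higher unadjusted (log2 0.36). After brightness adjustment it was 0.15 higher (1.11-fold, local SD 0.17). The authors' deposited table listed its q as 0.115. With the median difference of all probe sets past the filter set to 0, CLE41 stood at -0.01, so its sign depends on the scaling. CLE44 (AT4G13195), which encodes the same peptide, read 0.680 on the -Fe array and 0.685 on the +Fe array, below the filter on both. OPS, a phloem protein and the only named marker of 9 listed for phloem, read 0.866 on the -Fe array and 0.768 on the +Fe array. OPS passed the filter on the -Fe array alone and lay 0.19 above the curve. With the median difference set to 0 OPS stood at -0.19, so its sign depends on the scaling too. The part of phloem cells in the value of CLE41 was not tested.

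**Figure D2:**
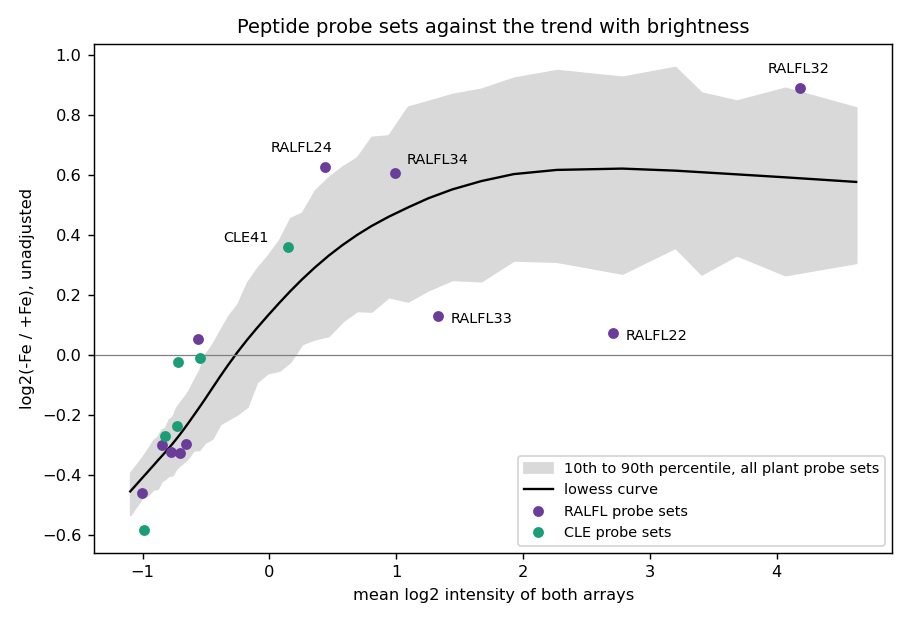
Log2 difference (-Fe over +Fe, unadjusted) against mean log2 intensity, with the lowess curve and the 10th to 90th percentile of all plant probe sets in bins of brightness (grey). RALFL22 and RALFL33 lie under the grey band, RALFL24 and RALFL32 lie at or above its upper edge, RALFL34 and CLE41 lie within it, and the unlabelled points at the left are the 11 members below the filter.

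The other 11 genes were below the filter on both arrays, with values of 0.411 to 0.691 on the -Fe array and 0.585 to 0.701 on the +Fe array. On the +Fe array all 11 read within the range of the Bacillus controls. On the -Fe array 9 of them did, and CLE44 (0.680) and RALFL31 (0.691) read above the highest control at 0.635. Among the 11, 10 were lower without iron, as were 93.8% of all probe sets below the filter. The exception was RALFL31 (AT4G13950), 0.691 on the -Fe array against 0.666 on the +Fe array. After brightness adjustment RALFL31 lay at 0.23 (local SD 0.10), with 7 of 500 higher. CLE44 lay at 0.16 (local SD 0.10), with 31 of 500 higher. With the median difference set to 0 RALFL31 stood at -0.31 and CLE44 at -0.38, so the sign of each depends on the scaling. Of the 11, 8 were lower without iron with q under 0.05 by the authors' deposited table, against 79.3% of all probe sets below the filter. All 27 Bacillus controls had q under 0.05 in the authors' deposited table too, so a low q at this level also came with transcripts no plant makes. After brightness adjustment 6 of the 11 lay above the curve, against 50.4% of all probe sets below the filter.

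Of the CLE genes at this level, CLE40 (AT5G12990) and CLE21 (AT5G64800) lay farthest from the curve and on opposite sides. CLE40, a relative of CLV3 that limits stem cells at the root tip, read 0.601 on the -Fe array and 0.611 on the +Fe array. Probe sets of its brightness were lower by more, so CLE40 lay at 0.25 after brightness adjustment (local SD 0.08), with 2 of 500 higher. The authors' deposited table listed its q as 0.0473. CLE21 read 0.411 on the -Fe array and 0.616 on the +Fe array, the largest negative unadjusted difference of the 17, at -0.58. After brightness adjustment CLE21 lay at -0.18 (local SD 0.06), with 1 of 500 lower. The authors' deposited table listed its q as 3.53e-06. All 4 values were within the range of the Bacillus controls of their array.

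CLE26 (AT1G69970), whose peptide shortens roots when supplied in excess, read 0.555 on the -Fe array and 0.653 on the +Fe array. CLE27 (AT3G25905) read 0.515 on the -Fe array and 0.620 on the +Fe array. Both were lower unadjusted, by -0.24 for CLE26 and -0.27 for CLE27, and lay within 1 local SD of the curve. RALFL18 (AT2G33130), RALFL27 (AT3G29780) and RALFL28 (AT4G11510) had unadjusted differences of -0.33 (RALFL18), -0.30 (RALFL27) and -0.30 (RALFL28). After adjustment they stood at -0.06, -0.06 and 0.04 in that order. RALFL25 (AT3G25165) and RALFL26 (AT3G25170), RALF genes known from pollen, are neighbours with 1 annotated gene between them. RALFL25 read 0.425 on the -Fe array and 0.585 on the +Fe array, and RALFL26 read 0.523 on the -Fe array and 0.654 on the +Fe array. Both lay within 1 local SD of the curve, at -0.05 for RALFL25 and -0.02 for RALFL26.

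**Figure D3:**
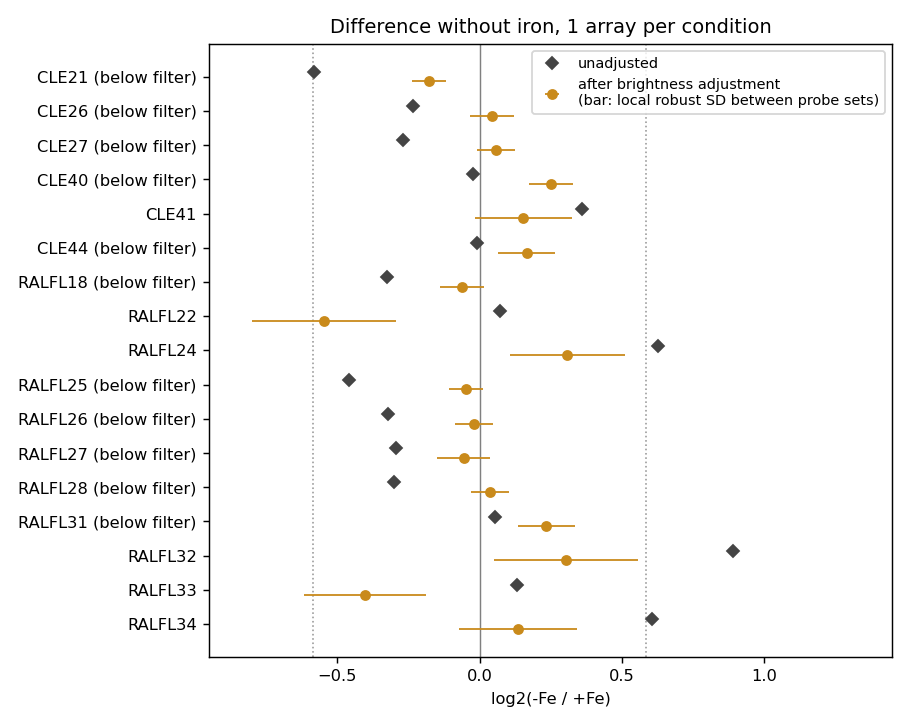
Log2 difference (-Fe over +Fe) of the 17 genes unadjusted (diamonds) and after brightness adjustment (circles, with bars of the local robust SD between probe sets, not a replicate error). Dotted lines mark 1.5-fold. RALFL24, RALFL32 and RALFL34 pass the right line unadjusted, and no circle passes either line.

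The receptors were covered thinly, with 7 of 51 listed receptor and co-receptor genes named on the array and 5 past the filter. Of these 5, MOL1 and PSY1R were at least 1.5-fold higher without iron unadjusted (24.1% of all probe sets past the filter were) and none was 1.5-fold lower (0.295% of all). After brightness adjustment 1 of the 5, THE1, was 1.5-fold lower (1.48% of all) and none was 1.5-fold higher (1.09% of all). The median difference of the 5 was 0.50 unadjusted, beside 0.37 over all probe sets past the filter. After brightness adjustment this median was -0.03, beside 0.01 over all. FER (AT3G51550), the receptor kinase FERONIA that binds RALF peptides, read 3.03 on the -Fe array and 2.14 on the +Fe array. This was 0.50 higher unadjusted and at -0.03 after brightness adjustment, with 209 of 500 probe sets of like brightness lower. FER thus followed the trend with brightness, while RALFL22 and RALFL33 lay below it.

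THE1 (AT5G54380), the receptor kinase THESEUS1 that binds RALF34 and senses the state of the wall, read 1.496 on the -Fe array and 1.76 on the +Fe array. It was lower without iron both unadjusted (-0.23) and after brightness adjustment (-0.63, 1.55-fold lower, local SD 0.19). Only 8 of 500 probe sets of its brightness lay lower, and over the 4 scalings tried THE1 ran from -0.65 to -0.54. The authors' deposited table, which has no q for adjusted values, listed 0.165. The gene of its ligand, RALFL34, lay on the other side of 0 on both scales. Unadjusted, so did 89.9% of all probe sets past the filter. The adjusted difference of RALFL34, 0.14, was smaller than its local SD of 0.21. No test of the difference between THE1 and RALFL34 was possible with 1 array per condition.

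MOL1 (AT5G51350), a receptor kinase that restrains the cambium, read 2.62 on the -Fe array and 1.64 on the +Fe array, 0.67 higher unadjusted and 0.19 after brightness adjustment. PSY1R (AT1G72300), a receptor kinase for sulfated PSY peptides, read 4.52 on the -Fe array and 2.75 on the +Fe array, 0.72 and 0.12 higher on these scales. The authors' deposited table gave q values of 0.00685 for MOL1 and 0.0311 for PSY1R. GSO1 (AT4G20140), the endodermal receptor also called SGN3 that guides the Casparian strip, read 1.44 on the -Fe array and 1.46 on the +Fe array, and lay at -0.37 after brightness adjustment with 17 of 500 lower. ANX1 and ANX2, receptor kinases of pollen tubes, read 0.448 and 0.456 on the -Fe array and 0.626 and 0.6001 on the +Fe array, within the range of the Bacillus controls.

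Of 39 listed genes for peptide maturation and downstream action, 3 were named and 2 passed the filter, and neither reached 1.5-fold on either scale. Over all probe sets past the filter 24.1% were that much higher and 0.295% lower unadjusted, and 1.09% and 1.48% after adjustment, so 0 of 2 does not set these genes apart. Their median difference was 0.16 unadjusted and -0.32 after brightness adjustment. SBT4.12 (AT5G59090), a subtilase that cuts peptide precursors, read 14.8 on the -Fe array and 11.5 on the +Fe array, 0.36 higher unadjusted and at -0.24 after brightness adjustment. Its close relative SBT4.13 read 0.524 on the -Fe array and 0.670 on the +Fe array, below the filter. XEG113 (AT2G35610), an arabinosyltransferase of wall glycoproteins, read 1.40 on the -Fe array and 1.44 on the +Fe array and lay at -0.39 after brightness adjustment, with 20 of 500 lower.

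**Figure D4:**
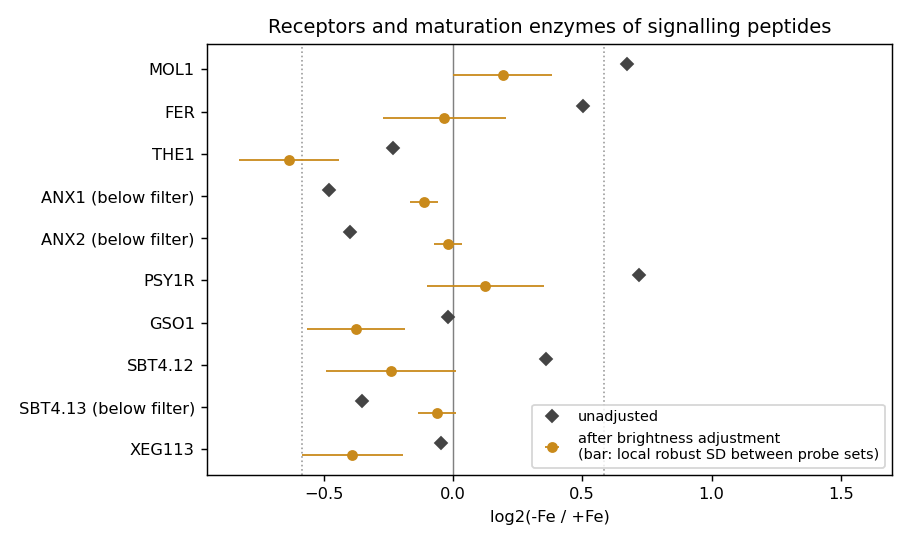
Log2 difference (-Fe over +Fe) of the 7 receptor and 3 maturation genes with a named probe set, unadjusted (diamonds) and after brightness adjustment (circles, with bars of the local robust SD between probe sets). Dotted lines mark 1.5-fold. MOL1 and PSY1R pass the right line unadjusted, and THE1 is the circle past the left line.

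The labelled cell type could be checked against few markers. Of 10 listed pericycle and stele genes 2 were named. LBD16, which acts in lateral root initiation, read 2.26 on the -Fe array and 1.598 on the +Fe array. LBD29 read 0.628 on the -Fe array and 0.706 on the +Fe array, below the filter and within the range of the Bacillus controls. EXPA7, EXPA18, GSO1 and OPS, listed for other cell types, read above every Bacillus control on both arrays, as did LBD16. GSO1 was the named gene of 9 endodermis markers, and no cortex or xylem marker was named. AGL42, of 7 listed for root cap and quiescent centre, read 0.507 on the -Fe array and 0.631 on the +Fe array, within the range of the Bacillus controls.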

How the data were processed

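Per the labels' protocols, RNA of sorted cells was amplified, labelled with biotin and hybridised to Affymetrix arrays. The deposited intensity values are linear, 1 per probe set and sample, and the sources used here do not state how they were background-corrected or scaled. The q-values were deposited by the authors, and the sources used here do not state the test or the arrays behind them.

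Gene names came from the platform's table (503 probe sets with several genes and 8730 plant probe sets with none were not named). Loci came from RefSeq's TAIR10.1 gene table, for 15 members by gene ID and for 2 by symbol. The unadjusted difference is log2 of -Fe minus log2 of +Fe, with no pseudocount. Brightness adjustment subtracts a lowess curve (statsmodels, fraction 0.2) of that difference on mean log2 intensity. It was run on simulated arrays built from the curve fitted here. This checks the calculation and cannot tell a technical trend from a biological one. The local SD is the scaled median absolute deviation over 500 probe sets. Members past the filter are named, and of each list up to 4 genes past the filter by adjusted difference plus the brightest. Dim genes named beyond this were chosen after their values were seen. The listed symbols SOL1 and PEP were left out, as their probe sets belong to other genes. Alternatives were other scalings, pseudocounts, filters, lowess fractions, probe sets and thresholds. The members and lists were chosen with earlier results of these data known.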

Additional observations from a re-analysis of the deposited data

How the results depend on the processing

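No paired analysis was possible because each condition has 1 array, and no replicate could be left out. The count of 3 members at least 1.5-fold higher without iron became 0 after quantile normalization, 0 with the median difference set to 0, 0 with an offset of 0.338 and a scale factor of 0.583 removed, 1 with a pseudocount of 0.25, 1 with a pseudocount of 1 (RALFL32 in both) and 0 at 2-fold. The count of members at least 1.5-fold lower was 0 and became 1 (RALFL22) with the offset and scale factor removed. The share of all probe sets was not counted at these settings, so the changed counts do not set the members apart. The median difference of the members past the filter was 0.48 unadjusted, beside 0.37 over all probe sets past the filter. The members' median was 0.15 after quantile normalization, 0.12 with the median difference set to 0 and 0.13 with the offset and scale factor removed. With no filter, which adds the 11 dim members, it was -0.024. This median was 0.41 with a pseudocount of 0.25, 0.27 with a pseudocount of 1 and 0.61 with the filter at the 75th percentile. Requiring q under 0.05 in the authors' deposited table as well left 2 members at least 1.5-fold higher. The share of all probe sets that meet both was not counted. Of all probe sets past the filter, 42.4% were higher with q under 0.05. After brightness adjustment both counts were 0, and they stayed 0 with no filter and with lowess fractions of 0.1 and 0.4. None of the 10874 probe sets below the filter reached 1.5-fold after adjustment, so dropping the filter could not raise a count. The other alternatives could only lower a count or leave it unchanged, so their 0 was fixed in advance. The adjusted median was 0.14 in the main setting and between 0.04 and 0.16 in the alternatives. The per-gene scalings were chosen after seeing the data. Signal over background limits the 11 dim members, whose values lie at or near those of the Bacillus controls.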

Other observations

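Among 48 listed signalling peptide genes whose names the rule does not cover, 2 had a named probe set and both were below the filter. CLV3, the founding CLE peptide of the shoot meristem, read 0.534 on the -Fe array and 0.665 on the +Fe array. STOMAGEN, also named EPFL9, which promotes stomata in leaves, read 0.469 on the -Fe array and 0.614 on the +Fe array. Both lay at -0.03 after brightness adjustment and within the range of the Bacillus controls on both arrays.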
